A study of Homo sapiens with 6 samples.

Results

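The genes described here are 10 that bind, activate or oxidise fatty acids: FABP3, FABP5, FABP6, ACSL1, ACSL3, ACSL4, CPT1A, CPT2, ACADM and HADHA. They were picked by gene name from the deposited count tables. The set was chosen by the read counts of this same contrast, in which FABP3 was much lower after ZEB1 knockdown, so their differences between the groups are a description and carry no test. Of the 10 names, 9 had a row among the 32029 genes listed, and all 9 were among the 14996 genes that passed the filter on low counts. FABP6, the bile acid binding protein of the ileum, had no row, and its level is not analysed here.

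SW480, an established line of human colorectal adenocarcinoma cells recorded as wild type, was grown as 6 cultures whose RNA was sequenced 48 h after transfection. In 3 cultures the siRNA was a negative control (siControl, siNC in the sample titles), and in 3 it was directed against ZEB1 (siZEB1), the zinc finger repressor known for silencing epithelial genes. All 6 cultures were of this 1 line, and the sources used here give neither the number nor the sequence of the siRNAs against ZEB1. Levels are given as CPM, reads scaled to a common library size by edgeR's TMM method, with the mean ± SD over 3 cultures. Fold changes are the log2 ratio of siZEB1 to siControl and stand beside their standard error (SE), and a gene is called where edgeR's quasi-likelihood test gave a Benjamini-Hochberg adjusted p under 0.05 over the 14996 genes.

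The counts summed to between 19040636 and 22357633 per culture. ZEB1 fell by 2.85 on the log2 scale (SE 0.11, adjusted p = 4.85e-12, edgeR's quasi-likelihood test), from 54.2 ± 6.24 to 7.51 ± 0.843 CPM (SD, n = 3). Of all genes tested, 2849 were called higher and 3186 lower, and the median log2 fold change was -0.01. Of 10 colorectal epithelium markers, 6 reached 1 CPM, led by the keratins KRT8 and KRT18, while KRT20, CEACAM5 and LGALS4 lay under 1 CPM and CDX1 had no row. The list moved with the groups: EPCAM, VIL1 and KRT19 rose by 3.05, 2.34 and 1.62 on the log2 scale and CDX2 fell by 1.30 (adjusted p at most 8.28e-10, edgeR's quasi-likelihood test), while KRT8 and KRT18, at 0.03 and 0.04, were not called. Its summed level was 4814 to 5437 CPM with siControl and 5329 to 6002 CPM with siZEB1, and its part in the results on fatty acid genes was not tested. None of the 8 striated muscle, 5 adipocyte or 6 leukocyte markers reached 1 CPM. Of 7 fibroblast markers, COL1A1 and PDGFRB did, and the list summed to between 13.5 and 15.0 CPM with siControl and between 13.3 and 15.3 CPM with siZEB1. P-values weigh the difference between the groups against the spread among the cultures of each group. They do not cover other cell lines or other siRNAs.

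Fatty acids are poorly soluble and are carried in the cytosol by fatty acid binding proteins. Acyl-CoA synthetases join them to coenzyme A. The carnitine palmitoyltransferases CPT1 and CPT2 move long-chain acyl groups onto and off carnitine, and a translocase carries them across the inner mitochondrial membrane. CPT1, at the outer membrane, is the rate-controlling step. In the matrix, each turn of β-oxidation runs through an acyl-CoA dehydrogenase, a hydratase, a hydroxyacyl-CoA dehydrogenase and a thiolase. The PPAR nuclear receptors bind fatty acids and induce many genes of this route, and colonocytes are known to oxidise short-chain fatty acids.

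Sequences of FABP3 and ACADM are shown because they had the lowest ratios of siZEB1 to siControl. ACSL1 is shown because, of the 9 genes with a start region here, it alone held the ZEB1 E-box there. The start region is the 250 bases before a RefSeq start on GRCh38.p14. Of the 10 genes, 9 had at least 1 such window, 13 in all. FABP6 is among these 9, while FABP5 had no window here and was not scanned for motifs. The E-box letters CACCTG, or CAGGTG on the other strand, were in 17.5% of all 35116 windows. They were in 2 windows, both of ACSL1 (chr4:184815125-184815374 and chr4:184812252-184812501, minus strand), the gene with the most windows here, and in no window of the other genes, where 20.6% of all 27305 genes with a window held one. The E-boxes began 183 and 24 bases before their starts, and stand in capitals here.

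ACSL1 site 183 bases before a start (chr4:184815292-184815317): gtccccagccCACCTGccgctccttc
ACSL1 site 24 bases before a start (chr4:184812260-184812285): gtttgttaagCACCTGtccttggctc

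DR1 is the repeat of AGGTCA with 1 base between the copies that PPARs are known to bind. Counting both strands, it was in 6 of the 35116 windows and in none of the 13 windows of these genes. The FABP3 window (chr1:31373077-31373326, minus strand) held 69.2% G and C, against a median of 58% over all windows, and neither motif, so that no base is in capitals.

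FABP3 window: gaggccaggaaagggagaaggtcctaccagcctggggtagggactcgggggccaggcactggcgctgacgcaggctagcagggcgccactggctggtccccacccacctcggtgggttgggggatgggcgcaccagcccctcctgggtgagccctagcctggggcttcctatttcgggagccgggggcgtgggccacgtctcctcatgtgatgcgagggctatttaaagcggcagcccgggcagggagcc

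For ACADM, the stretch shown is chr1:75762784-75762810 (GRCh38, plus strand), in the last exon and 3′UTR of the GENCODE transcript ENST00000370834.9, around the 7-mer GAACACA in capitals. An earlier scan of these data had picked out this 7-mer by the lower expression of the genes that hold it, so its match is no independent evidence. It was in the 3′UTR of 1313 of the 12318 tested genes with an annotated 3′UTR (10.7%), whose median log2 fold change was -0.23, against 0.01 for the other 11005. Among the 9 genes with a row, ACADM alone held it, once, from base 31 of a 3′UTR of 728 bases, and its part in the ACADM level was not tested.

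ACADM 3′UTR site: tgaataactaGAACACAagccactgtt

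FABP3 and ACADM were the 2 genes with a severalfold lower level after ZEB1 knockdown, CPT1A was 1.48-fold lower, and the other 6 stayed within 15.5% of the siControl mean. By the adjusted p, 1 of the 9 was called higher (ACSL4), 4 lower (FABP3, ACSL1, CPT1A and ACADM) and 4 neither (FABP5, ACSL3, CPT2 and HADHA). Over all genes tested, 40.2% were called, 19.0% as higher and 21.2% as lower. The 3 cultures of each group did not overlap for 5 of the 9 genes, where 49.5% of all genes tested did not overlap. Where a fold change over 1.5 is asked for beside an unadjusted p under 0.05, 2 of the 9 (FABP3 and ACADM) were lower and 0 higher, where 9.35% of all genes tested were lower and 7.21% higher. Because FABP3's contrast was used to choose the genes, nothing is read from these counts. Their median log2 fold change was -0.20, and their summed level was 1198 ± 28.99 CPM with siControl and 942 ± 5.16 CPM with siZEB1 (SD, n = 3). In a bulk culture, fewer cells expressing a gene and less RNA per cell cannot be told apart.

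**Figure D1:**
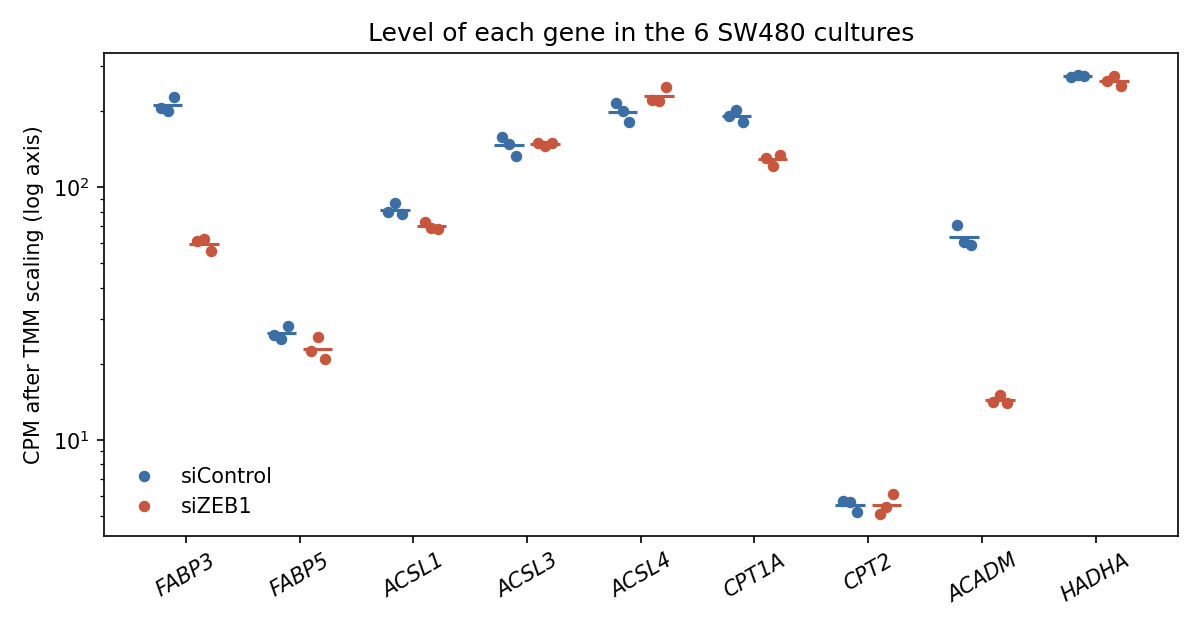
Level of the 9 genes in each of the 6 cultures, in CPM after TMM scaling on a log axis, with each point a culture and each bar the mean of 3. The siZEB1 points of FABP3 and ACADM lie far below the siControl points, at 55.8 to 62.2 CPM against 200.4 to 227 CPM and at 14.0 to 15.0 CPM against 59.2 to 70.8 CPM, and those of CPT2 and ACSL3 lie among them.

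FABP3 (ENSG00000121769, chr1:31365625-31376850, minus strand) encodes the heart-type fatty acid binding protein, which is best known from heart and skeletal muscle. Its reads numbered 4370, 4488 and 4383 with siControl against 1158, 1195 and 1068 with siZEB1. In CPM the siControl cultures stood at 205.5, 200.4 and 227 and the siZEB1 cultures at 61.3, 62.2 and 55.8. Every siZEB1 culture was far below every siControl culture, and the cultures within a group lay close together. Between siControl and siZEB1 the mean went from 211 ± 14.3 to 59.8 ± 3.45 CPM, and the log2 fold change was -1.82 (SE 0.07, 95% interval -1.97 to -1.67), or 3.53-fold lower. Of the 14996 genes, 47 had a lower log2 fold change. The muscle markers, which include the myosin heavy chains MYH6 and MYH7 and myoglobin (MB), summed to between 0.467 and 0.625 CPM with siControl and between 0.208 and 0.954 CPM with siZEB1. Every muscle marker listed was under 1 CPM.

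FABP5 (ENSG00000164687, plus strand of chromosome 8) is the epidermal fatty acid binding protein, found in many epithelia and carcinomas. Its reads numbered 552, 559 and 545 with siControl against 424, 490 and 400 with siZEB1. The siZEB1 replicate 2, at 25.5 CPM, stood above the lowest siControl culture, at 25.0 CPM, so the groups overlapped. The mean was 26.4 ± 1.70 CPM with siControl and 22.95 ± 2.33 CPM with siZEB1, with a log2 fold change of -0.20 (SE 0.09, unadjusted 95% interval -0.39 to -0.01) that was not called. Without siZEB1 replicate 2 the value was -0.28 and was called. Reads of FABP5 can also be assigned to its pseudogenes, and between 23.1% and 28.4% of the reads on FABP5 and 6 listed pseudogenes were on pseudogene rows, nearly all on FABP5P7. The siControl cultures held 174, 186 and 169 FABP5P7 reads and the siZEB1 cultures 137, 144 and 151, and the log2 fold change was -0.16 (SE 0.11, adjusted p = 0.291, edgeR's quasi-likelihood test). With all these reads summed into FABP5, an alternative chosen after seeing the data, its log2 fold change was -0.19.

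The ratio of FABP3 to FABP5 reads was 7.92, 8.03 and 8.04 in the siControl cultures and 2.73, 2.44 and 2.67 in the siZEB1 cultures. Per kilobase of exon, FABP3 made up 94.2% ± 0.05 of the summed level of both genes with siControl and 84.1% ± 0.81 with siZEB1 (SD, n = 3). By the reads counted on these rows, FABP3 thus remained the more abundant of both transcripts in all 6 cultures. Reads of FABP5 on pseudogene rows, or left uncounted, are not in these values. The genes with the pattern closest to FABP3 over the 6 cultures, by the root-mean-square distance of centred log2 levels, were P4HB at 0.05, CETN2 at 0.06 and PDZD11 at 0.07 log2 units. P4HB encodes a protein disulfide isomerase of the endoplasmic reticulum, and its log2 fold change was -1.76, against -2.02 for the centrin gene CETN2.

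The list of other intracellular lipid-binding proteins was nearly silent. FABP1 of liver and intestine had 1 read over the 6 cultures, FABP2 of the small intestine 3 and FABP4 of adipocytes 1. Of 13 listed genes, 4 passed the filter, and their median log2 fold change was -0.06. RBP5, a retinol binding protein, rose by 0.62 on the log2 scale (SE 0.18, adjusted p = 0.0116) from 3.49 to 5.40 CPM, and CRABP2, the cellular retinoic acid binding protein, fell by 0.22 (SE 0.06, adjusted p = 0.00649), both by edgeR's quasi-likelihood test. Without siZEB1 replicate 3, RBP5 had 0.42 and was not called.

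Long-chain acyl-CoA synthetases differ in location and preferred substrate. ACSL1 (ENSG00000151726, chr4:184755595-184826818, minus strand), which feeds both oxidation and lipid synthesis, was counted 1689, 1928 and 1513 times with siControl against 1372, 1329 and 1303 times with siZEB1. The groups did not overlap, but the gap was narrow, between 78.5 CPM in the lowest siControl culture and 72.7 CPM in the highest siZEB1 culture. Between siControl and siZEB1 the mean went from 81.3 ± 4.15 to 70.0 ± 2.41 CPM, and the log2 fold change was -0.22 (SE 0.07, 95% interval -0.36 to -0.08). The call was lost without siControl replicate 2 (-0.18) and without siZEB1 replicate 2 (-0.21).

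ACSL3 (ENSG00000123983, chr2:222860934-222944639, plus strand) sits on the endoplasmic reticulum and nascent lipid droplets. Its reads were 3356, 3319 and 2554 with siControl and 2813, 2804 and 2855 with siZEB1. The siZEB1 cultures fell within the range of the siControl cultures, which was the wider of both. The means were 146 ± 12.8 and 148 ± 1.89 CPM, and the 95% interval of the log2 fold change of 0.02 ran from -0.12 to 0.16.

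ACSL4 (ENSG00000068366, chrX:109624244-109733403, minus strand) prefers arachidonic acid and related polyunsaturated fatty acids, and is known for making membranes sensitive to ferroptosis. Its reads were 4582, 4456 and 3470 with siControl and 4153, 4209 and 4739 with siZEB1. In CPM the highest siControl culture, at 215.5, nearly met the lowest siZEB1 culture, at 219, and the groups did not overlap. Between siControl and siZEB1 the mean went from 198 ± 17.8 to 229 ± 16.3 CPM, and the log2 fold change was 0.21 (SE 0.07, 95% interval 0.06 to 0.36). This call was lost without siControl replicate 2 (0.21), without siControl replicate 3 (0.14) and without siZEB1 replicate 3 (0.15).

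Per kilobase of exon, ACSL4 made up 47.6% ± 0.972 of the summed ACSL level with siControl and 52.65% ± 1.83 with siZEB1 (SD, n = 3). ACSL1 went from 20.01% ± 1.46 to 16.5% ± 0.997, and ACSL3 from 31.1% ± 0.474 to 30.2% ± 0.873. The ACSL4 shares of the siZEB1 cultures were all above those of the siControl cultures, and the ACSL1 shares all below. By this measure ACSL5 and ACSL6 each made up under 1% in every culture. With the longest transcript in place of all exons, ACSL6 made up 1.07%, 1.10% and 1.42% in the siControl cultures. Its shares in the siZEB1 cultures were then 0.603%, 0.623% and 0.55%.

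**Figure D2:**
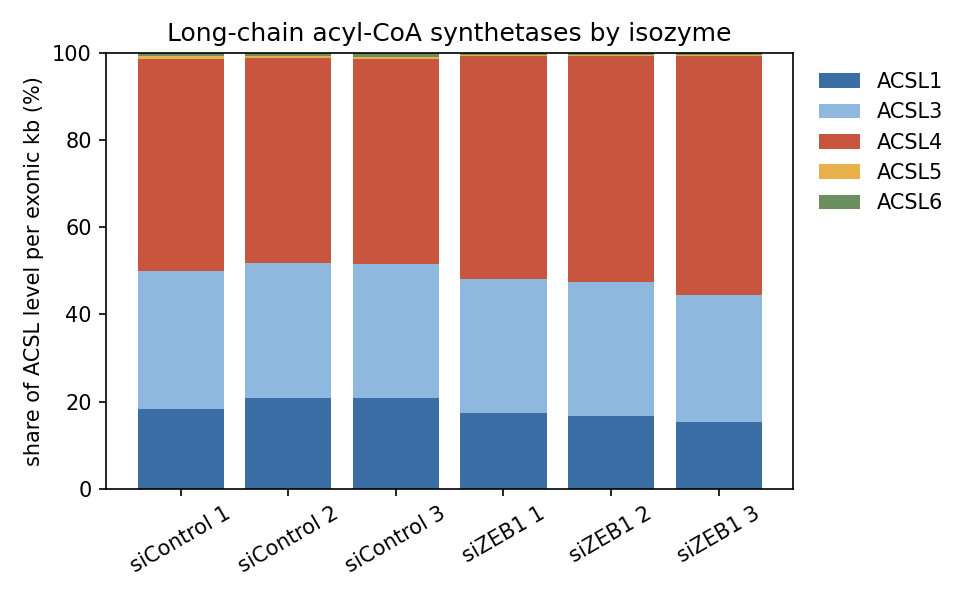
Share of each of the 5 long-chain acyl-CoA synthetase genes in their summed level per kilobase of exon, in percent, with a bar for each culture. ACSL4 takes the largest segment in all 6 cultures, from 47.0% to 48.7% with siControl and from 51.3% to 54.7% with siZEB1.

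Among other genes of fatty acid uptake and activation, 12 of 15 were tested, of which 2 rose, 6 fell and 4 were not called, with a median log2 fold change of -0.31. SLC27A2, a very long-chain acyl-CoA synthetase and transporter, rose by 0.98 (SE 0.12, adjusted p = 6.33e-06), with exons of ATP8B4 on the opposite strand over 19.9% of its exonic bases. ACSL6, best known from brain, fell by 0.96 (SE 0.14, adjusted p = 5.31e-05). Exons of AC026398.1 on the same strand overlap 15.4% of the exonic bases of ACSL6. ACSL5 fell by 0.86 (SE 0.31, adjusted p = 0.038) at a level of only 1.49 CPM with siControl, all by edgeR's quasi-likelihood test. The ACSL5 call was lost under 6 of 12 alternatives, among them leaving out siControl replicate 1 (-0.60, adjusted p = 0.205 by edgeR) or 2, or siZEB1 replicate 1 or 2, and DESeq2. CD36, the fatty acid translocase, had 11 reads over the 6 cultures and was not tested.

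CPT1A (ENSG00000110090, chr11:68754620-68844410, minus strand) is the liver-type carnitine palmitoyltransferase of the outer mitochondrial membrane and the target of inhibition by malonyl-CoA. Counts of 4059, 4496 and 3499 reads with siControl stood against 2462, 2337 and 2567 with siZEB1. In CPM the siControl cultures stood at 191, 201 and 181.5 and the siZEB1 cultures at 130.4, 121.5 and 134. The groups were well apart, with each siZEB1 culture below each siControl culture. Between siControl and siZEB1 the mean went from 191 ± 9.63 to 129 ± 6.47 CPM, with a log2 fold change of -0.57 (SE 0.06, 95% interval -0.70 to -0.44), and so decreased by 32.65%. Its place among all genes was less extreme than those of FABP3 and ACADM, as 10.8% of the genes tested had a lower log2 fold change.

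CPT2 (ENSG00000157184, chr1:53196429-53214197, plus strand), which returns the acyl group to coenzyme A inside the mitochondrion, had few reads, at 122, 127 and 100 with siControl and 96, 104 and 117 with siZEB1. The groups overlapped, and the means were 5.53 ± 0.30 and 5.54 ± 0.53 CPM. The log2 fold change of -0.000619 had a 95% interval from -0.29 to 0.29, so that a change of that size in either direction was not detectable at this depth. Exons of genes on the opposite strand cover 12.0% of its exonic bases, and whether the counting used the strand is not given in the sources used here.

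The ratio of CPT1A to CPT2 reads was 33.3, 35.4 and 34.99 with siControl and 25.6, 22.5 and 21.9 with siZEB1, and it was lower in each siZEB1 culture than in any siControl culture. CPT1A was nearly the whole of the CPT1 family, at 99.65% ± 0.15 of its summed level per kilobase of exon with siControl and 99.59% ± 0.14 with siZEB1. CPT1B, the muscle isozyme, had 5 reads over the 6 cultures, and CPT1C, the brain isozyme, had 58, and neither was tested. The annotation shares 66.4% of the exonic bases of CPT1B with the readthrough gene CHKB-CPT1B on the same strand, so that its reads may be undercounted and the CPT1A share is uncertain to that extent.

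Of 8 other genes of the carnitine shuttle and malonyl-CoA metabolism, 6 were tested, of which 2 rose, 3 fell and 1 was not called, with a median log2 fold change of -0.38. SLC25A20, the carnitine-acylcarnitine translocase that links CPT1 and CPT2, rose by 0.32 (SE 0.08, adjusted p = 0.00345), from 24.4 ± 0.687 to 30.4 ± 1.06 CPM. MLYCD, the malonyl-CoA decarboxylase that removes the inhibitor of CPT1, fell by 0.72 (SE 0.16, adjusted p = 0.00144). CRAT and CROT, the carnitine acetyl- and octanoyltransferases, fell by 0.57 (SE 0.12, adjusted p = 0.0011) and 0.54 (SE 0.10, adjusted p = 0.000329), all by edgeR's quasi-likelihood test. The other gene that rose was SLC22A5, the carnitine importer of the plasma membrane, by 0.35 (SE 0.09, adjusted p = 0.00541, edgeR's quasi-likelihood test).

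ACADM (ENSG00000117054, chr1:75724347-75787575, plus strand) encodes the medium-chain acyl-CoA dehydrogenase, whose inherited deficiency is the most common defect of β-oxidation. The siControl cultures held 1506, 1355 and 1141 of its reads, and the siZEB1 cultures 267, 289 and 267. In CPM these were 70.8, 60.5 and 59.2 against 14.1, 15.0 and 14.0. The siControl cultures were spread more widely than the siZEB1 cultures, which were all at about the same low level. Between siControl and siZEB1 the mean went from 63.5 ± 6.37 to 14.4 ± 0.576 CPM, and the log2 fold change was -2.14 (SE 0.09, 95% interval -2.33 to -1.96), or 4.42-fold lower. Of the 14996 genes, 19 had a lower log2 fold change, so that ACADM was further from its control level than FABP3. Exons of RABGGTB on the same strand overlap 3.28% of its exonic bases.

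HADHA (ENSG00000084754, chr2:26190635-26244726, minus strand) encodes the α subunit of the mitochondrial trifunctional protein, with the hydratase and dehydrogenase activities for long-chain substrates. Its reads were 5800, 6211 and 5293 with siControl and 4972, 5291 and 4818 with siZEB1. The siZEB1 cultures lay on both sides of the lowest siControl culture, and the groups overlapped. The means were 275 ± 2.31 and 263 ± 11.7 CPM, with a log2 fold change of -0.06 (SE 0.06, 95% interval -0.18 to 0.06). The pseudogenes HADHAP1 and HADHAP2 had 4 and 20 reads over the 6 cultures.

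HADHB, the β subunit with the thiolase activity, lies head to head with HADHA (chr2:26243170-26290468, plus strand) and rose by 0.15 (SE 0.06, adjusted p = 0.0467, edgeR's quasi-likelihood test), a call lost under 8 of 12 alternatives, among them leaving out each culture but siZEB1 replicate 3, with values of 0.12 to 0.16. The ratio of HADHA to HADHB reads was 1.95, 2.01 and 1.98 with siControl and 1.72, 1.71 and 1.69 with siZEB1. It was lower in each siZEB1 culture than in any siControl culture. The ratio of HADHA to ACADM reads was 3.85, 4.58 and 4.64 with siControl and 18.6, 18.3 and 18.04 with siZEB1.

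**Figure D3:**
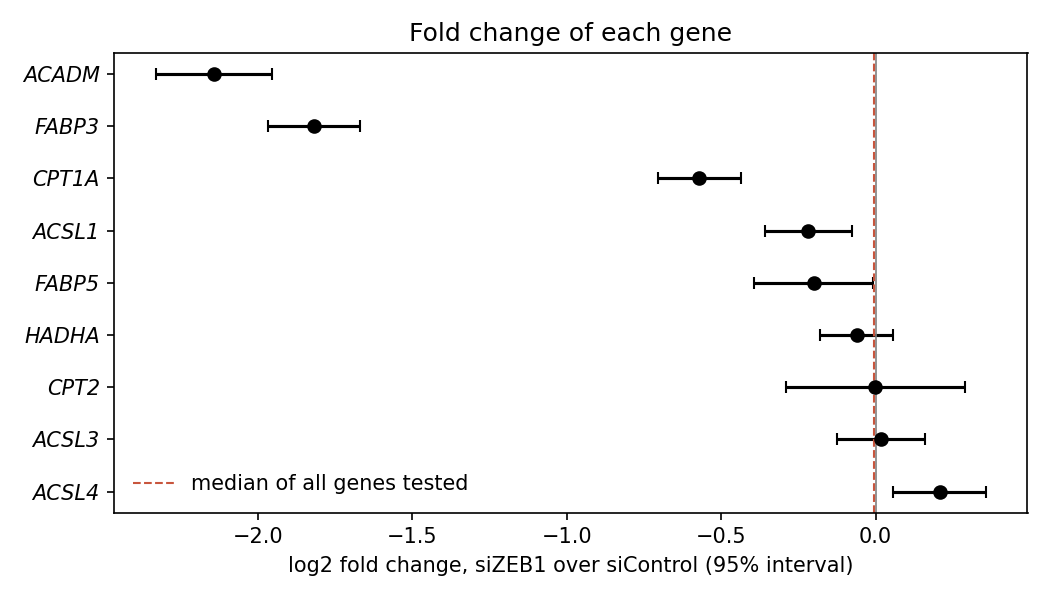
Log2 fold change of siZEB1 over siControl for each of the 9 genes, with points for the fitted values, bars for unadjusted 95% intervals and a dashed line for the median of all genes tested (-0.01). ACADM (-2.14) and FABP3 (-1.82) lie apart from the other 7, which run from -0.57 for CPT1A to 0.21 for ACSL4.

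Of 16 other mitochondrial β-oxidation genes, 14 were tested: 3 rose, 2 fell and 9 were not called, with a median log2 fold change of -0.001385. ACADS, the short-chain counterpart of ACADM, fell by 0.90 (SE 0.23, adjusted p = 0.00479), from 3.18 ± 0.663 to 1.69 ± 0.427 CPM. ACADVL, the very long-chain counterpart, rose by 0.19 (SE 0.06, adjusted p = 0.0136), from 289 ± 14.8 to 330 ± 12.4 CPM. That call was lost without siControl replicate 1 (0.16) or 2 (0.19) and without siZEB1 replicate 1 (0.19) or 2 (0.165). HADH, the short-chain hydroxyacyl-CoA dehydrogenase, fell by 0.25 (SE 0.08, adjusted p = 0.022), and ETFA, a subunit of the electron acceptor of these dehydrogenases, rose by 0.22 (SE 0.06, adjusted p = 0.0118). These p-values are from edgeR's quasi-likelihood test. The call of HADH was lost without siControl replicate 1 (-0.24) or 2 (-0.26) or siZEB1 replicate 1 (-0.21), and that of ETFA without siZEB1 replicate 2 (0.17). With the replicate number as a block in the fit, the calls of ACADVL, HADH and ETFA were lost as well (adjusted p = 0.0725, 0.0721 and 0.0651, edgeR's quasi-likelihood test). ETFDH, which passes the electrons on to ubiquinone, had a log2 fold change of 0.07 (adjusted p = 0.694, edgeR).

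Levels can be compared between genes per kilobase of exon. With siControl, FABP3 stood highest of the 9, at 206 ± 14.0 CPM per kb, followed by HADHA at 62.7 ± 0.527, ACSL4 at 30.9 ± 2.77 and CPT1A at 29.1 ± 1.47. ACSL3 came next at 20.2 ± 1.77, then ACADM at 13.3 ± 1.33, ACSL1 at 12.9 ± 0.66 and FABP5 at 12.7 ± 0.817, and CPT2 was lowest at 0.529 ± 0.029. ACSL4 and CPT1A overlapped over the cultures, as did ACADM with ACSL1 and ACSL1 with FABP5, so their order is not set. With siZEB1, HADHA stood highest at 60.1 ± 2.67 CPM per kb and overlapped with FABP3 at 58.25 ± 3.37. ACSL4 followed at 35.7 ± 2.54, while ACADM was next to last at 3.01 ± 0.12, above CPT2 at 0.530 ± 0.05. ACSL3 overlapped with CPT1A, and ACSL1 with FABP5.

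Peroxisomes shorten very long-chain and branched fatty acids before the mitochondria take them over. Of 15 genes of this route, 12 were tested, and 5 fell and 7 were not called, with a median log2 fold change of -0.22. None was called higher by edgeR's adjusted p, where 19.0% of all genes tested were. An unadjusted p under 0.05 (0 genes) and DESeq2 (0 genes), on the same counts, gave the same. A log2 fold change above 0 was seen for 4 of the 12. ACOX3, an oxidase of branched acyl-CoA, fell by 0.80 (SE 0.11, adjusted p = 1.39e-05). SCP2, a sterol carrier and thiolase, fell by 0.54 (SE 0.09, adjusted p = 0.000121), both by edgeR's quasi-likelihood test. Exons of TUBBP10 on the same strand overlap 15.35% of the exonic bases of SCP2.

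The part of the PPARs in the levels of these genes was not tested. Of 9 genes of PPARs, their partners and coactivators, 8 were tested, of which 1 rose, 3 fell and 4 were not called, with a median log2 fold change of -0.27. PPARD, the receptor found in most tissues, fell by 0.26 (SE 0.06, adjusted p = 0.0016), from 175 ± 1.03 to 146 ± 4.93 CPM. The log2 fold change was -0.28 for PPARA (SE 0.14, adjusted p = 0.115) and for PPARG -0.61 (SE 0.29, adjusted p = 0.11) at 1.31 CPM with siControl, and neither was called. PPARGC1B, a coactivator of mitochondrial genes, fell by 0.86 (SE 0.10, adjusted p = 2.6e-06), and HNF4A, a nuclear receptor of liver and gut, by 0.63 (SE 0.07, adjusted p = 1.58e-06). RXRB, a partner receptor, rose by 0.76 (SE 0.08, adjusted p = 1.6e-06), all by edgeR's quasi-likelihood test. PPARGC1A had 17 reads over the 6 cultures and was not tested.

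Of 10 PPAR-responsive genes outside oxidation, 8 were tested, of which 2 rose, 4 fell and 2 were not called, with a median log2 fold change of -0.22. PLIN2, the coat protein of lipid droplets, fell by 0.60 (SE 0.05, adjusted p = 1.4e-07), from 477 ± 9.997 to 315 ± 10.8 CPM. ANGPTL4, a secreted inhibitor of lipoprotein lipase, fell by 0.75 (SE 0.11, adjusted p = 4.26e-05). UCP3, a mitochondrial carrier of muscle, rose by 1.70 (SE 0.35, adjusted p = 0.000813) from 12, 15 and 4 reads with siControl to 30, 31 and 31 reads with siZEB1. PDK4, which spares glucose when fatty acids are burnt, stood at -0.10 on the same scale (SE 0.28, adjusted p = 0.808), all by edgeR's quasi-likelihood test. The list moved in both directions, with the larger ratios among genes of few reads.

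Of 14 lipid droplet and lipolysis genes, 11 were tested, and 4 fell and 7 were not called, with a median log2 fold change of -0.21. None was called higher by edgeR's adjusted p, where 19.0% of all genes tested were. An unadjusted p under 0.05 (0 genes) and DESeq2 (0 genes), on the same counts, gave the same. A log2 fold change above 0 was seen for 1 of the 11. DGAT1 and DGAT2, which make triglyceride, fell by 0.84 (SE 0.13, adjusted p = 5.43e-05) and 0.42 (SE 0.13, adjusted p = 0.0132), and PNPLA2, the lipase that starts its breakdown, fell by 0.32 (SE 0.08, adjusted p = 0.00429), by edgeR's quasi-likelihood test. Without siZEB1 replicate 1, DGAT2 had -0.35 and was not called. Exons of AC233992.1 and MIR6848 on the same strand overlap 10.9% of the exonic bases of DGAT1.

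Of the 100 genes on these 8 lists together, 75 were tested, of which 11 rose and 28 fell, where 19.0% and 21.2% of all genes tested were called in those directions. Their median log2 fold change was -0.18, beside -0.01 for all genes tested, and the values ranged from -0.96 for ACSL6 to 1.76 for FGF21, a secreted metabolic hormone counted 7, 3 and 3 times with siControl against 16, 14 and 11 times with siZEB1. None of the tested genes of the 8 lists had a log2 fold change as low as that of FABP3 or ACADM.

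**Figure D4:**
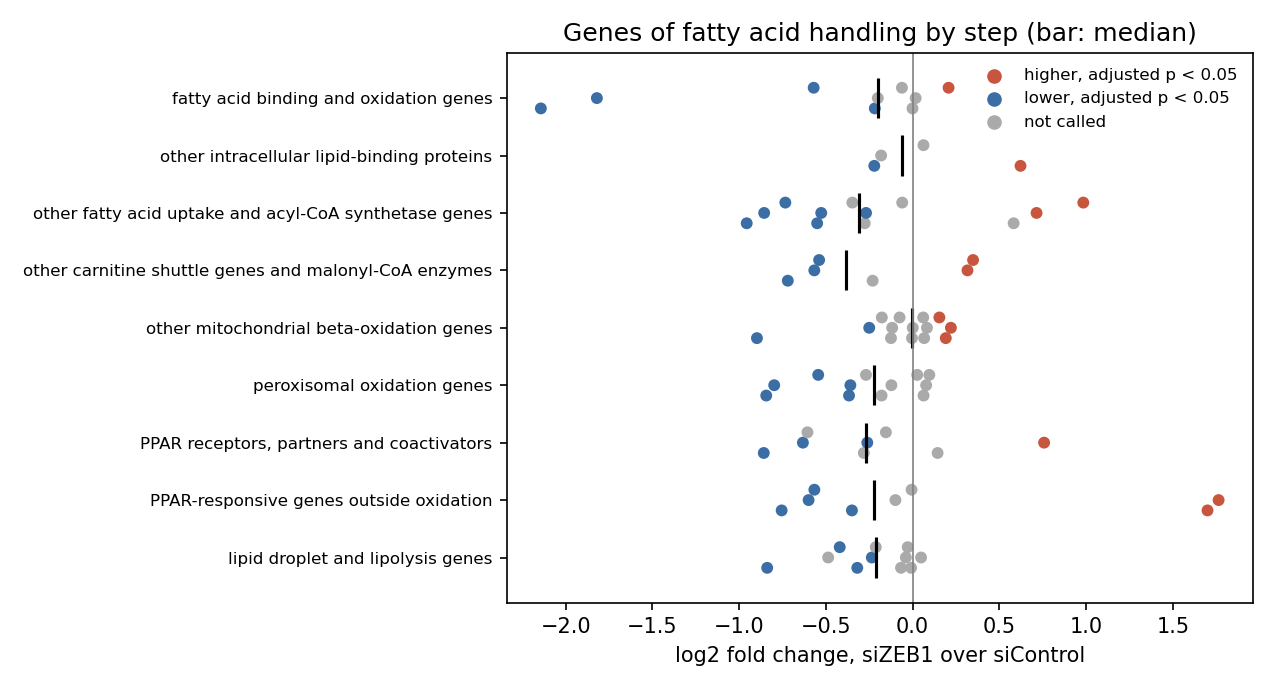
Log2 fold change of siZEB1 over siControl for the 9 genes described (top row) and the 75 tested genes of the 8 other lists, with each point a gene, red for called higher, blue for called lower and grey for not called, and a black bar for the median of each row. FABP3 and ACADM lie left of every other gene shown, and the medians of the other lists run from -0.38 for the carnitine genes to -0.001385 for mitochondrial β-oxidation.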

How the data were processed

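Total RNA of the 6 SW480 cultures was extracted with Trizol and sequenced, and the authors deposited whole-number counts of reads per gene for each culture, without normalization. The submitters' processing notes list Trimmomatic, HISAT2, SAMtools, featureCounts and hg38, without versions. The annotation and the strand setting are not given in the sources used here. Counting error depends on depth, 19040636 to 22357633 counts per culture. No replicate pair agreed within sampling noise (chi-square over degrees of freedom 2.26 to 9.53).

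Genes were filtered by filterByExpr, scaled by TMM and tested with edgeR 4.0.16 (glmQLFit and glmQLFTest, two-sided, no covariates) in R 4.3.3, which was tested on simulated data. DESeq2 1.42.0 served as an alternative. Positions and exonic lengths were looked up by gene identifier in GENCODE 29 (GRCh38). Start regions are from RefSeq.

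The genes and lists were chosen with earlier results of these data known. Named genes are ZEB1, the 10 genes, up to 3 called genes per list with the largest absolute log2 fold change (mean of at least 1 CPM, no overlap), fixed isozymes and regulators, and the 3 genes nearest to FABP3. FABP5P7 and the HADHA pseudogenes were named as pseudogenes, FGF21 and SLC22A5 after their values were seen. Some genes selected this way are not reported here.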

Additional observations from a re-analysis of the deposited data

How the results depend on the processing

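Under the other tests, scalings and filters, the block and each culture left out, 101 of 109 log2 fold changes of the 9 genes kept their side of the threshold, 7 lost a call and 1 gained one. None of those called changed sign, while the uncalled values of CPT2 and ACSL3, both near 0, did so under 7 and 1 alternatives. Of 407 values of the other named genes, 373 kept their direction and side, 30 lost a call and 4 took the other sign, all of genes not called: leaving out 1 culture at a time gave -0.013 to 0.17 for ETFDH and -0.25 to 0.083 for PDK4, and the cause was not tested. Another scaling moved the median of all genes by -0.00819 to 0.00751 log2 units. At a fold change above 1.5 with an unadjusted p under 0.05 or 0.001, 1081 or 678 of all genes were higher and 1402 or 1004 lower. Of the 9 genes 0 were then higher and 2 lower (FABP3 and ACADM) at either p, and of the pathway lists 6 or 4 were higher and 12 or 9 lower. This rule changes the fold and the p together, and which of them lowers the counts was not tested. Leaving out each culture gave 0 to 1 of the 9 genes higher and 3 to 4 lower, and 8 to 11 of the pathway genes higher and 24 to 30 lower.

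The replicate numbers did not pair the cultures: the deviations of same-numbered cultures correlated at -0.0517, -0.0883 and -0.20. No culture correlated best with the culture of its own number in the other group. With the number as a block, 2289 of all genes were higher and 2679 lower, 0 of the 9 genes were higher and 3 lower (the calls of ACSL4 and ACSL1 were lost), and 8 pathway genes were higher and 25 lower.

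With the longest transcript in place of all exons, the siControl levels in CPM per kb were 291 for FABP3, 89.05 for HADHA, 37.2 for ACSL4, 36.5 for CPT1A, 26.8 for FABP5, 25.7 for ACSL3, 24.25 for ACADM, 19.8 for ACSL1 and 1.22 for CPT2. The mean of FABP5 then stood above those of ACSL3, ACADM and ACSL1. The spread of these levels over the cultures was not compared, so their order is not set. Genes of few reads, CPT2 among these 9, are limited by depth.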
